A study of Mus musculus with 15 samples.

Results

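Levels of polyA RNA at zeitgeber time 16 (ZT16) were compared with those at ZT4 in 2 kinds of innate lymphoid cell, group 2 (ILC2) and group 3 (ILC3), sorted from the small intestine of female mice, with cell type kept as a block so that differences shared by both cell types were tested together. The comparison held 7 of the 15 libraries of the series. At ZT16 there were 3 libraries, 1 of ILC2 and 2 of ILC3, and at ZT4 there were 4, 2 of each cell type. The labels name no strain, genotype or treatment other than the time. Cells of 6 mice were pooled for each time before staining and sorting. The submitters describe the replicates as biological. Nothing in the sources used here says that 2 libraries of 1 group were made from different pools of animals, and the p-values may therefore reflect technical spread alone. Every ILC2 library carries the label batch 1 and every ILC3 library batch 2, and the comparison was therefore made within each batch.

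ILC2 and ILC3 are tissue-resident lymphocytes without rearranged antigen receptors. ILC2 answer alarmins with type 2 cytokines, and ILC3 make IL-22 and IL-17. By the usual convention zeitgeber time counts from lights on, so that ZT4 lies in the light, resting phase of a mouse and ZT16 in the dark, active phase, although the labels do not state the light schedule. In the circadian clock of mammals, CLOCK and BMAL1 (encoded by Arntl) bind E-boxes and drive the genes of their own repressors, the Period and Cryptochrome proteins, and those of the nuclear receptors REV-ERBα and REV-ERBβ (Nr1d1 and Nr1d2). REV-ERB proteins in turn repress Arntl and Cry1. Body temperature also follows the day and in mice is higher in the active phase. Heat shock factor 1 drives chaperone genes through heat shock elements, whereas the RNA-binding protein genes Cirbp and Rbm3 are known for higher expression in the cold.

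Total counts of the 7 libraries ranged from 5903163 to 20976226. The ILC2 ZT16 library had 13666417 counts, and the ILC3 ZT16 libraries had 20044781 and 18546375. The replicate 1 libraries at ZT4 were the shallowest, with 6543306 in ILC2 and 5903163 in ILC3, while the ZT4 replicate 2 libraries had 13055287 and 20976226. The differences between the ZT4 replicates had the same pattern in both cell types: replicate 1 minus replicate 2 in ILC2 had a Pearson's r of 0.637 with the same difference in ILC3 across 9649 genes, which are not independent replicates. ILC2 and ILC3 at ZT4 therefore cannot be taken as separate samples of that hour, and the main results are given below with all libraries and also without both ZT4 replicate 1 libraries.

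The cells were checked against genes known for each type. The ILC2 factor gene Gata3 had 435 CPM (counts scaled to 1e+06 per library with TMM factors) in the ILC2 ZT16 library, against 646 and 372 CPM in the ILC2 ZT4 libraries. It had 53.0 and 43.9 CPM in ILC3 at ZT16, against 25.3 and 29.0 CPM at ZT4. Il23r, the interleukin-23 receptor gene of ILC3, had 110 and 71.1 CPM in the ILC3 ZT16 libraries, against 163 and 72.3 CPM in the ILC3 ZT4 libraries. In ILC2 it had 3.07 CPM at ZT16, against 0.680 and 1.22 CPM at ZT4. Ptgdr2, the gene of the prostaglandin D2 receptor CRTH2 often used to mark ILC2, was at 0 in all 3 ILC2 libraries. By the other sort markers examined, among them Il1rl1, Il17rb, Klrg1 and Il22, the libraries were on the side of their labels.

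Sequences around the starts of the genes were searched, since E-boxes and heat shock elements are the elements named above. Promoters of RefSeq (GRCm38.p6, the same build as mm10) from 250 bases before to 50 bases after a gene's start were searched on both strands for an E-box (CACGTG), a D-box (TTACATAA, TTACGTAA, TTATGCAA, TTATGTAA or TTGCATAA, with their reverse complements), the core of a ROR element (TAGGTCA), a cyclic AMP response element (TGACGTCA), a heat shock element (GAANNTTC or TTCNNGAA, whose matches can overlap) and a CCAAT box. An entry was found for 44 of 55 genes looked up. Of 32851 promoters, 7.15% held the E-box, 1.78% a D-box, 2.61% the ROR core, 1.79% the cyclic AMP element and 15.1% a heat shock element. The first start listed is printed for 4 genes with higher fitted levels at ZT16, 5′ to 3′ on the gene's strand, the E-box in capitals for Cry1 and Tef and the heat shock elements in capitals for Hsph1 and Chordc1:
Cry1, chr10:85185005-85185304 (minus strand): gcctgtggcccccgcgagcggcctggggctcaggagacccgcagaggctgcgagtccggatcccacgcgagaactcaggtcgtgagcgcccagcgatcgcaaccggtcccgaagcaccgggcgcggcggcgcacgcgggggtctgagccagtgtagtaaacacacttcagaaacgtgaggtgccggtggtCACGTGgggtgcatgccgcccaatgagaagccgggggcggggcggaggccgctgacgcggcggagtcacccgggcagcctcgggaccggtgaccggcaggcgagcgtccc
Tef, chr15:81802423-81802722 (plus strand): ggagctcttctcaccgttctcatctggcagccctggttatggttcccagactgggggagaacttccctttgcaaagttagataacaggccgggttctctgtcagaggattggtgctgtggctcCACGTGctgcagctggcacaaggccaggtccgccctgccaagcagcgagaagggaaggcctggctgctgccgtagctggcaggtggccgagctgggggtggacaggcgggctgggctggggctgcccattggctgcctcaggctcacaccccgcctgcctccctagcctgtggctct
Hsph1, chr5:149636287-149636586 (minus strand): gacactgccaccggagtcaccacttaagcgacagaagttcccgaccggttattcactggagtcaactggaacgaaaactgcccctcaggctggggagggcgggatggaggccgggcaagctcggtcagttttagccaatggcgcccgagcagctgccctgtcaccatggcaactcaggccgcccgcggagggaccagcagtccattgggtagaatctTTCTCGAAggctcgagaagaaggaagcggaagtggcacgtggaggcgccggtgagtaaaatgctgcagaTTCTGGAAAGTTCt
Chordc1, chr9:18292017-18292316 (plus strand): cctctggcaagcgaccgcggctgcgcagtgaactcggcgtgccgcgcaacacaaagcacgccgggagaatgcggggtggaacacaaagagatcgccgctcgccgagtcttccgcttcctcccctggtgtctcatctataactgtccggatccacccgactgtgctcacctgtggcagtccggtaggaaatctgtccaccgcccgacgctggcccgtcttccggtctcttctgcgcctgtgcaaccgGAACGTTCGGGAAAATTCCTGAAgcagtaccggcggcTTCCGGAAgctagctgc
The E-box of Cry1 begins at position -60 from the start and that of Tef at -127. The promoter of Hsph1 holds 3 matches to the heat shock element and that of Chordc1 holds 5, of which 4 form a run that shares bases and 1 stands apart. The Nr1d1 promoter held none of these motifs in this window. The 4 printed genes are examples chosen by hand, and all hold a match. E-boxes also stood in the windows of Per1, Ciart and Bhlhe41, whose ZT16 and ZT4 levels overlapped, and of Wsb1 and Oser1, which were lower at ZT16. Stip1, which was higher, held no heat shock element, and the Hsph1 window also holds an E-box, not capitalized here. A match describes letters and does not show that a factor binds there.

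No gene passed in the comparison of ZT16 with ZT4. In edgeR's quasi-likelihood test with Benjamini-Hochberg adjustment, 0 of 15339 genes had an adjusted p under 0.05 (0%), and the smallest adjusted p was 0.496. At an unadjusted p under 0.05 there were 1293 genes (8.43%), of which 600 had higher fitted levels at ZT16 (3.91% of genes tested) and 693 lower (4.52%). In 1579 genes (10.3%) every ZT16 library lay above every ZT4 library within each cell type, and in 956 genes (6.23%) every ZT16 library lay below. These genes are called here without overlap. DESeq2 called 79 of the 5525 genes for which it gave an adjusted p (1.43%), 11 higher and 68 lower at ZT16. When both ZT4 replicate 1 libraries were left out, DESeq2 called 10 of the 15339 genes for which it then gave an adjusted p. Of these 10 genes 1, Cry1, was among the 79. The adjusted p of the 2 DESeq2 fits were thus taken over different numbers of genes and cannot be compared directly. Limma voom, with libraries of the same time and replicate number treated as if from 1 pool, called 0 genes. The correlation it fitted within these assumed pools was 0.036, so it hardly allowed for the shared pattern of the ZT4 replicates. The values that follow therefore describe levels by library, and higher or lower refers to these levels and not to a call.

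Cry1, a transcriptional repressor of the clock (Entrez 12952; mm10 chromosome 10, 85131700 to 85185054), had 41.3 CPM in ILC2 at ZT16, against 29.8 and 19.6 CPM at ZT4. In ILC3 it had 59.9 and 50.3 CPM at ZT16, against 35.5 and 29.7 CPM at ZT4. All 3 ZT16 libraries lay above all ZT4 libraries of their cell type. The fitted log2 fold change, ZT16 minus ZT4, was 0.76 ± 0.17 (SE; edgeR unadjusted p = 0.000461, adjusted p = 0.496), and it was 0.76 in ILC3 and 0.75 in ILC2. Without both ZT4 replicate 1 libraries it was 1.00 ± 0.19 (unadjusted p = 0.000113). DESeq2 gave an adjusted p of 0.0126 with all libraries and 0.000706 without both ZT4 replicate 1 libraries, and over 25 alternatives the adjusted p ran from 0.000706 to 0.990.

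Nr1d1, which encodes REV-ERBα (Entrez 217166; chromosome 11, 98767932 to 98775377), was on the other side. It had 11.1 CPM in ILC2 at ZT16, against 28.4 and 34.0 CPM at ZT4. In ILC3 it had 122 and 66.8 CPM at ZT16, against 214 and 170 CPM at ZT4. The ZT16 libraries lay below the ZT4 libraries in both cell types, with a log2 fold change of -1.15 ± 0.29 (SE; edgeR unadjusted p = 0.00111, adjusted p = 0.496). Within cell types it was -1.02 in ILC3 and -1.50 in ILC2. The value was -1.08 without both ZT4 replicate 1 libraries. DESeq2's adjusted p was 0.0158 with all libraries and 0.249 without these, taken over 5525 and 15339 genes (range over 25 alternatives 0.0158 to 0.990).

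The core clock list had 24 genes, 23 of them tested. At an unadjusted p under 0.05, 4 had higher fitted levels at ZT16 (Cry1, Per2, Per3 and Tef) and 3 lower, Nr1d1 and Nr1d2 among them, where 3.91% and 4.52% of all genes did. These counts were 2 and 1 without both ZT4 replicate 1 libraries, where 1.62% and 4.49% of all genes had such a p. Without overlap there were 6 higher and 3 lower, where 10.3% and 6.23% of all genes were, and the median log2 fold change was -0.02, against -0.04 over all genes tested. The Period gene Per2 had 22.9 CPM in ILC2 at ZT16, against 10.2 and 10.8 CPM at ZT4, and 24.9 and 21.6 CPM in ILC3 at ZT16, against 19.2 and 11.3 CPM at ZT4 (0.84 ± 0.37 on the log2 scale, edgeR adjusted p = 0.566). Without both ZT4 replicate 1 libraries Per2 was at 1.07. Per3 had 14.5 CPM in ILC2 at ZT16, against 11.6 and 11.3 CPM at ZT4, and 13.1 and 8.90 CPM in ILC3 at ZT16, against 1.86 and 7.69 CPM at ZT4 (0.89, and 0.57 without both ZT4 replicate 1 libraries). Its groups did not overlap in either cell type, but the lower ZT16 library and the higher ZT4 library of ILC3 lay close together. Per1, the third Period gene, overlapped, with 465 CPM in ILC2 at ZT16, against 584 and 519 CPM at ZT4, and 619 and 460 CPM in ILC3 at ZT16, against 609 and 561 CPM at ZT4.

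Nr1d2, the gene of REV-ERBβ, had 91.5 CPM in ILC2 at ZT16, against 246 and 129 CPM at ZT4. In ILC3 it had 132 and 82.7 CPM at ZT16, against 233 and 138 CPM at ZT4. The ZT16 libraries were lower in both, but the replicate 1 libraries of ZT4 stood well above the replicate 2 libraries, and the log2 fold change was -0.86 with all libraries and -0.36 without both replicate 1 libraries. The PAR bZIP factor gene Tef had 61.8 CPM in ILC2 at ZT16, against 44.9 and 45.8 CPM at ZT4, and 61.6 and 45.5 CPM in ILC3 at ZT16, against 27.2 and 40.1 CPM at ZT4 (0.54, and 0.43 without those libraries). Its relative Dbp overlapped, with 20.2 CPM in ILC2 at ZT16, against 30.4 and 27.9 CPM at ZT4, and 40.5 and 19.5 CPM in ILC3 at ZT16, against 22.3 and 23.9 CPM at ZT4. The sign of Dbp (-0.04) turned when only library size was used for scaling (0.039). The kinase gene Csnk1d lay higher at ZT16 in both cell types (0.17). The activator genes Arntl (-0.16), Clock (0.05) and Npas2 (-0.51), the Cryptochrome gene Cry2 (-0.19), the ROR gene Rora (-0.63) and the repressor genes Nfil3 (-0.43), Bhlhe40 (-0.19) and Ciart (-0.02) overlapped, as did Hlf (0.31), Bhlhe41 (0.67), Csnk1e (0.10) and Fbxl21 (0.01). Each of these had an edgeR adjusted p of 0.606 or more.

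**Figure D1:**
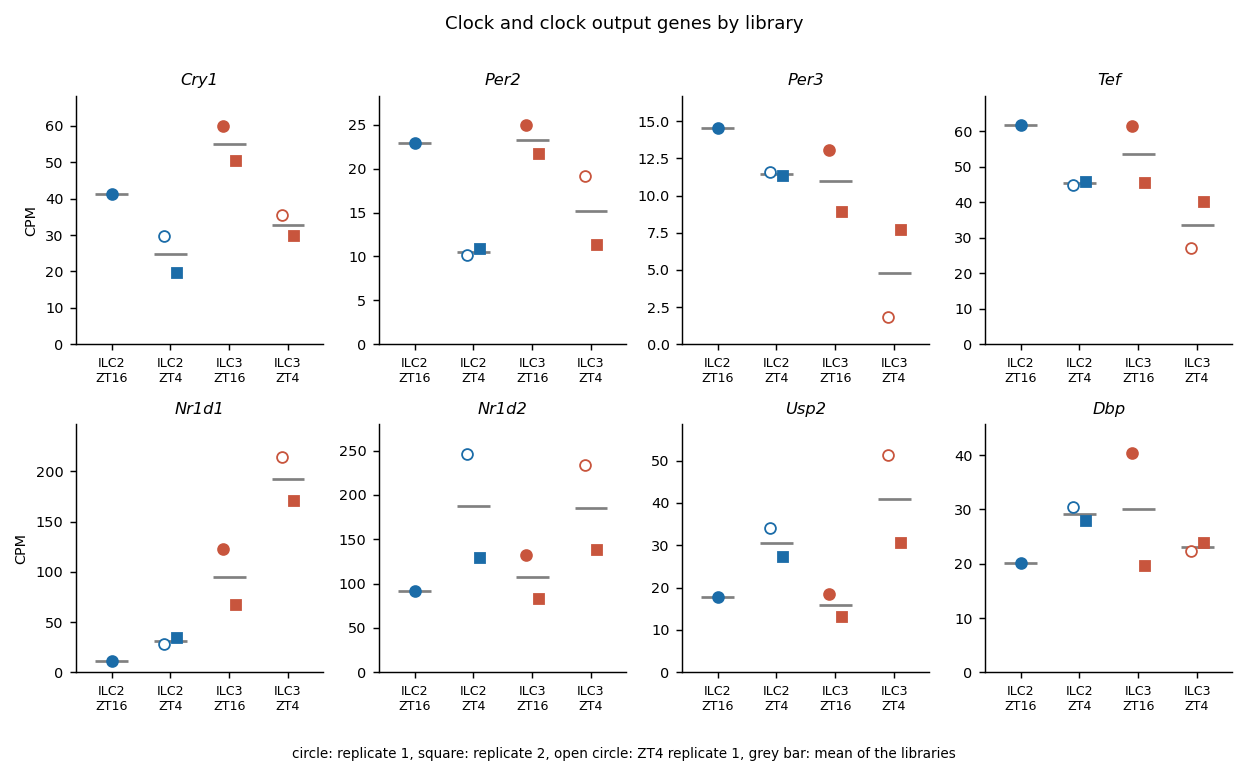
Level in CPM (y axis, from 0) of 8 clock and clock output genes in each of the 7 libraries, with ILC2 in blue and ILC3 in red, and ZT16 left of ZT4 within each cell type. Points are libraries, open circles are the ZT4 replicate 1 libraries and grey bars are means; Cry1, Per2, Per3 and Tef lie higher and Nr1d1, Nr1d2 and Usp2 lower at ZT16 with no overlap in either cell type, while Dbp overlaps.

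Of 30 tested genes of a list of common clock outputs, 2 had an unadjusted p under 0.05 with higher levels at ZT16 (Cry1 and Wee1) and 5 with lower levels, where 3.91% and 4.52% of all genes did. They were 3 and 5 without both ZT4 replicate 1 libraries, where 1.62% and 4.49% of all genes had such a p. Usp2, a deubiquitinase gene that cycles in many mouse tissues, had 17.7 CPM in ILC2 at ZT16, against 34.0 and 27.3 CPM at ZT4. In ILC3 Usp2 had 18.5 and 13.2 CPM at ZT16, against 51.3 and 30.6 CPM at ZT4, so that no groups overlapped (-1.13 ± 0.30, edgeR adjusted p = 0.496). Wee1, a kinase gene of the cell cycle, had 19.7 CPM in ILC2 at ZT16, against 10.9 and 13.1 CPM at ZT4, and 19.9 and 19.0 CPM in ILC3 at ZT16, against 13.95 and 12.3 CPM at ZT4 (0.63, and 0.64 without both ZT4 replicate 1 libraries). The list overlaps the next groups, since Rbm3 and Cirbp stand in it. Klf10, a Krüppel-like factor gene, was also lower without overlap (-0.71, and -0.70 without these libraries).

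Of 20 heat shock list genes, 9 had an unadjusted p under 0.05 with higher fitted levels and 3 with lower levels. The shares over all genes were 3.91% and 4.52%. Without overlap there were 8 higher and 2 lower, where 10.3% and 6.23% of all genes were. The 2 lower ones were Rbm3 and Cirbp. The median log2 fold change of the list was 0.43 with all libraries and 0.31 without both ZT4 replicate 1 libraries. Without them 4 genes with higher and 3 with lower levels had an unadjusted p under 0.05, where 1.62% and 4.49% of all genes did. Hsph1, which encodes the HSP110 chaperone that recharges HSP70 (Entrez 15505; chromosome 5, 149616843 to 149636498), had 241 CPM in ILC2 at ZT16, against 63.4 and 90.5 CPM at ZT4. In ILC3 it had 240 and 216 CPM at ZT16, against 69.2 and 159 CPM at ZT4. Its 3 ZT16 libraries lay close together and above the ZT4 libraries, of which replicate 1 was the lower in both cell types. The log2 fold change of Hsph1 was 1.27 ± 0.26 (SE; edgeR unadjusted p = 0.000169, adjusted p = 0.496). It was 0.92 without both ZT4 replicate 1 libraries. Without ILC3 ZT4 replicate 2 alone Hsph1 was the 1 gene that edgeR called, with an adjusted p of 0.0296, and DESeq2 gave it 0.00597, in a range of 0.00597 to 0.990 over 25 alternatives.

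For 2 co-chaperone genes, of which Stip1 was not on the list, all ZT16 libraries were also the higher ones. Chordc1, the gene of an HSP90-binding protein, had 92.0 CPM in ILC2 at ZT16, against 51.9 and 65.4 CPM at ZT4, and 76.5 and 96.3 CPM in ILC3 at ZT16, against 47.4 and 52.2 CPM at ZT4 (0.71 ± 0.18). Stip1, which encodes the adaptor between HSP70 and HSP90, had 154 CPM in ILC2 at ZT16, against 113 and 86.6 CPM at ZT4, and 128 and 153 CPM in ILC3 at ZT16, against 95.6 and 86.1 CPM at ZT4. For Stip1 the log2 fold change was 0.64 ± 0.16 with all libraries and 0.80 without both ZT4 replicate 1 libraries. Hspa8, the constitutive HSP70 gene, had 3176 CPM in ILC2 at ZT16, against 2499 and 1961 CPM at ZT4. In ILC3 Hspa8 had 2788 and 2711 CPM at ZT16, against 2042 and 1872 CPM at ZT4, for log2 fold changes of 0.49 with all libraries and 0.64 without those 2. Hsp90aa1 (0.51), Ahsa1, which activates HSP90 (0.40), Hsf1, the gene of heat shock factor 1 itself (0.34), and the mitochondrial chaperonin genes Hspd1 (0.46) and Hspe1 (0.17) also lay higher without overlap.

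The stress-inducible genes varied more between libraries. Hspa1b had 5626 CPM in ILC2 at ZT16, against 388 and 1992 CPM at ZT4, and 6067 and 4169 CPM in ILC3 at ZT16, against 473 and 4858 CPM at ZT4. ILC3 ZT4 replicate 2 thus lay above an ILC3 ZT16 library, and the low ZT4 values were those of replicate 1. Hspa1a and Dnajb1 overlapped in the same way. The log2 fold changes of Hspa1b, Hspa1a and Dnajb1 were 1.48, 1.49 and 1.08 with all libraries and 0.68, 0.72 and 0.54 without both ZT4 replicate 1 libraries. Hspa1a and Hspa1b are near-identical copies, and how the counting split reads between them is not stated by the submitters.

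The cold-induced RNA-binding protein genes were on the opposite side. Rbm3 had 177 CPM in ILC2 at ZT16, against 477 and 298 CPM at ZT4, and 147 and 161 CPM in ILC3 at ZT16, against 532 and 225 CPM at ZT4 (-1.21 ± 0.30, edgeR adjusted p = 0.496). Cirbp had 102 CPM in ILC2 at ZT16, against 175 and 158 CPM at ZT4, and 88.7 and 83.9 CPM in ILC3 at ZT16, against 139 and 117 CPM at ZT4 (-0.66 ± 0.18). Neither overlapped. Without both ZT4 replicate 1 libraries Rbm3 was at -0.60 and Cirbp at -0.54. DESeq2 gave adjusted p of 0.0130 and 0.0188 with all libraries (over 5525 genes), and 0.539 and 0.346 when those libraries were left out (over 15339 genes). In the list of 14 RNA-processing and temperature genes that are known to cycle, 3 were higher and 5 lower without overlap, where 10.3% and 6.23% of all genes were. The 3 were Hsph1, Hspa8 and Hsp90aa1, which the heat shock list also holds. The RNA-binding protein genes Hnrnpdl (-0.78) and Srsf5 (-0.56) were lower beside Rbm3 and Cirbp, while Clk1, Clk4, Tra2a and Tra2b overlapped.

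**Figure D2:**
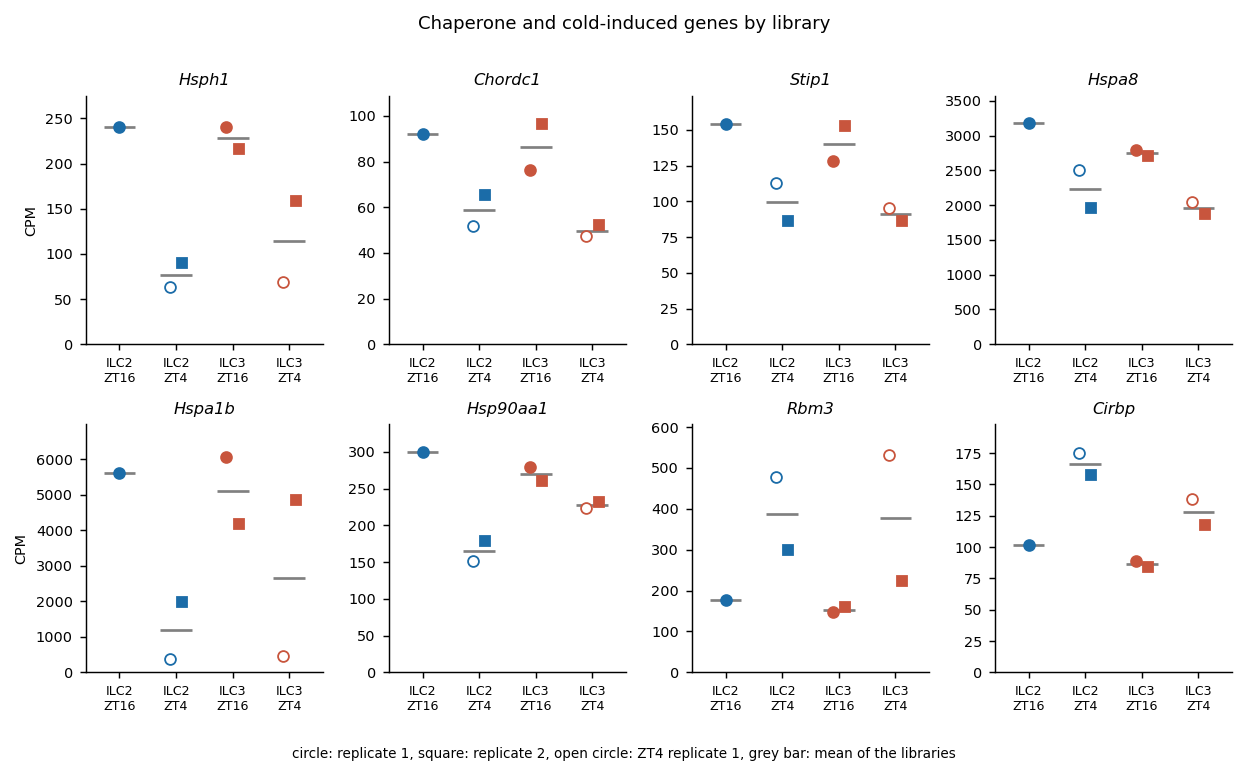
Level in CPM (y axis, from 0) of 6 chaperone and co-chaperone genes and of Rbm3 and Cirbp in each of the 7 libraries, ILC2 in blue and ILC3 in red, ZT16 left of ZT4. Points are libraries, open circles are ZT4 replicate 1 and grey bars are means; all but Hspa1b are without overlap, and for Hspa1b the square at ILC3 ZT4 (4858 CPM) lies above the lower ILC3 ZT16 library (4169 CPM).

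Genes qualified to be named by absence of overlap, at 10 CPM or more and a log2 fold change of 0.5 or more in either direction. There were 472 with higher and 371 with lower levels at ZT16, whatever their p. The 15 with the smallest p in each direction are described here. The 15 with higher levels had log2 fold changes from 0.59 to 1.27 and edgeR adjusted p of 0.496 throughout. Besides Cry1 and the chaperone genes Hsph1, Stip1 and Chordc1 they were genes of different roles. Dnmt1, the maintenance DNA methyltransferase gene, had 92.3 CPM in ILC2 at ZT16, against 57.6 and 73.1 CPM at ZT4, and 103 and 117 CPM in ILC3 at ZT16, against 39.6 and 70.2 CPM at ZT4 (0.81 ± 0.18). Setd1b, a histone H3 lysine methyltransferase gene (0.78), Bcor, the corepressor of BCL6 (0.75), Rfx1, a DNA-binding factor (0.70), Safb, a nuclear scaffold and RNA-binding protein (0.67), Scaf4, which binds the tail of RNA polymerase II (0.60), and the zinc finger gene Zfp207 (0.59) were in the set. The formin gene Fhod1, which acts on actin, had 18.4 CPM in ILC2 at ZT16, against 10.4 and 8.20 CPM at ZT4, and 27.6 and 37.3 CPM in ILC3 at ZT16, against 11.5 and 19.5 CPM at ZT4 (1.07 ± 0.23). Nfatc2ip (0.99), Tsc22d4 (0.92) and the cytoskeletal gene Septin11 (0.63) completed it. All 15 kept an unadjusted p under 0.05 without both ZT4 replicate 1 libraries, and their median log2 fold change was 0.75 with and 0.61 without them. The genes were chosen on libraries that the smaller fit also holds, so it is no separate test of them. In 10 of the 15 ZT4 replicate 1 lay below replicate 2 in both cell types.

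In the promoters of this set, an E-box was found in 4 of the 13 genes with an entry, where 8.09% of all 27025 genes with a promoter held one in any start, and a heat shock element in 3 of 13, where 17.0% of all genes did. The set with lower levels had an E-box in 2 of 12 genes and a heat shock element in 1 of 12. Of the core clock genes 5 of 18 held an E-box, 2 a D-box and 2 the ROR core. The counts are small and were not tested.

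The 15 genes with lower levels and the smallest p had log2 fold changes from -2.22 to -0.69. Zswim4, a zinc finger gene (Entrez 212168; chromosome 8, 84210942 to 84237042), had 42.0 CPM in ILC2 at ZT16, against 78.9 and 75.9 CPM at ZT4, and 59.2 and 50.3 CPM in ILC3 at ZT16, against 157 and 99.1 CPM at ZT4. The ILC2 libraries of ZT4 were close to each other, and every ZT16 library was lower (-1.08 ± 0.21, edgeR unadjusted p = 0.000141, adjusted p = 0.496). Wsb1, which encodes a substrate receptor of a ubiquitin ligase, had 74.9 CPM in ILC2 at ZT16, against 223 and 111 CPM at ZT4, and 114 and 103 CPM in ILC3 at ZT16, against 304 and 186 CPM at ZT4 (-1.17 ± 0.23). Gabpb1, a subunit gene of the GABP transcription factor, had 59.7 CPM in ILC2 at ZT16, against 226 and 101 CPM at ZT4, and 57.9 and 43.9 CPM in ILC3 at ZT16, against 239 and 88.4 CPM at ZT4 (-1.57 ± 0.32). Mvk, the mevalonate kinase gene of sterol synthesis, had 18.3 CPM in ILC2 at ZT16, against 39.6 and 32.7 CPM at ZT4, and 19.0 and 19.3 CPM in ILC3 at ZT16, against 32.4 and 29.1 CPM at ZT4 (-0.80 ± 0.18).

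Crem, the gene of the cyclic AMP response element modulator that is induced by cyclic AMP signals, had the widest gap between the ZT4 replicates in the set. It had 169 CPM in ILC2 at ZT16, against 938 and 258 CPM at ZT4, and 183 and 109 CPM in ILC3 at ZT16, against 1234 and 352 CPM at ZT4. Its log2 fold change was -2.19 ± 0.47 with all libraries and -0.98 without both ZT4 replicate 1 libraries. Ramp3, which modifies receptors for calcitonin-family peptides, was likewise at -1.76 with and -0.60 without these. Bpnt1, a nucleotidase gene (-1.50), the neutrophil chemokine gene Cxcl1 (-1.69), Tm7sf3 (-0.69), the RNA kinase gene Clp1 (-1.21), Oser1 (-0.70), the splicing gene Cwc25 (-1.30), Ankrd33b (-2.22), the small GTPase gene Arl5c (-1.43) and Pcyt1a of phosphatidylcholine synthesis (-1.03) made up the rest. In all 15 genes ZT4 replicate 1 lay above replicate 2 in both cell types, an order seen in 25.1% of all genes tested. The median of the set was -1.30 with all libraries and -0.66 without both ZT4 replicate 1 libraries, when 14 of 15 kept an unadjusted p under 0.05. This set too was chosen on libraries that the smaller fit holds. For Zswim4, Wsb1, Gabpb1 and Crem DESeq2 gave an adjusted p of 0.00122 (over 5525 genes), and 0.149 to 0.281 when those libraries were left out (over 15339 genes).

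**Figure D3:**
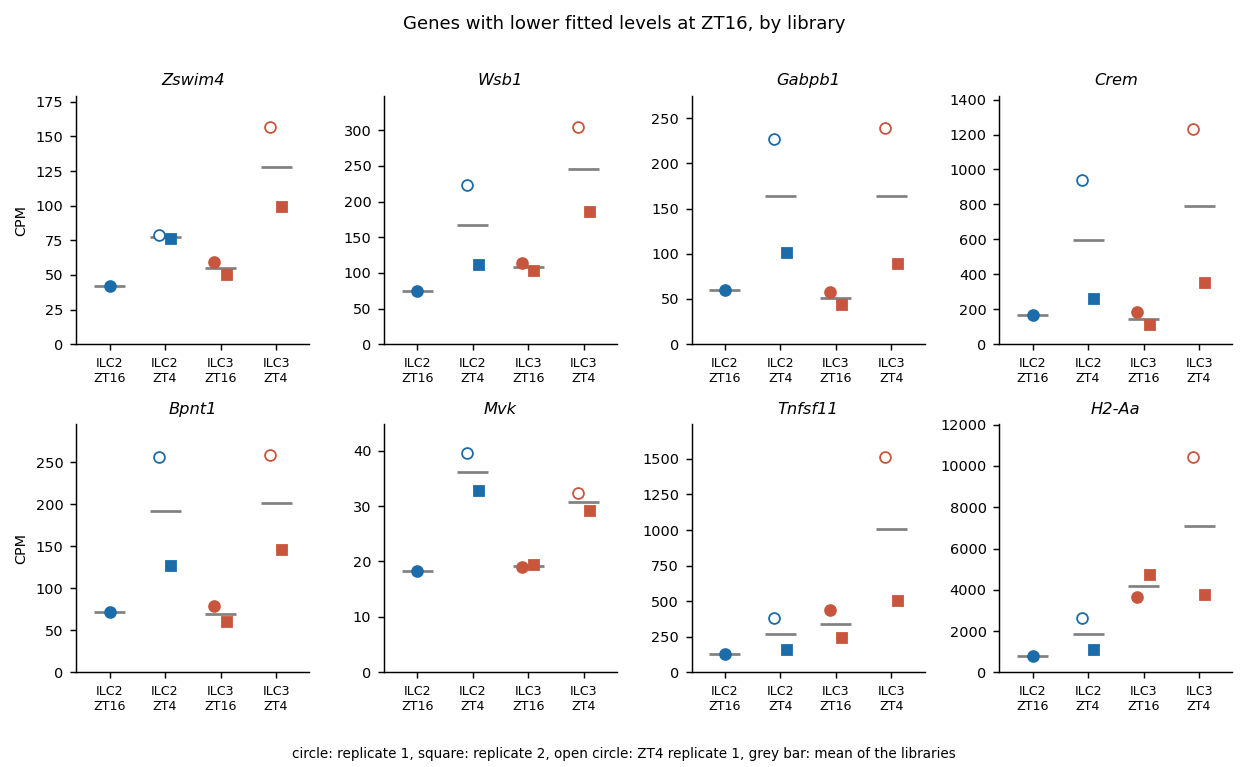
Level in CPM (y axis, from 0) of 8 genes with lower fitted levels at ZT16 in each of the 7 libraries, ILC2 in blue and ILC3 in red, ZT16 left of ZT4. Points are libraries, open circles are ZT4 replicate 1 and grey bars are means; the open circles are the highest points of their cell type in every panel, 7 genes are without overlap, and the square of H2-Aa at ILC3 ZT4 (3753 CPM) lies between the 2 ILC3 ZT16 libraries (3634 and 4716 CPM).

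The same order of the ZT4 replicates ran through the genes with small p as a whole. Of the 693 genes with lower levels at ZT16 and an unadjusted p under 0.05, 64.8% had ZT4 replicate 1 above replicate 2 in both cell types. Of the 600 with higher levels, 60.7% had replicate 1 below replicate 2 in both, where 30.2% of all genes did. Without both ZT4 replicate 1 libraries the unadjusted p was under 0.05 for 249 genes with higher levels (1.62%) and 688 with lower levels (4.49%). At an unadjusted p under 0.01 in both fits and without overlap with all libraries, 29 of 15339 genes were left, 14 higher and 15 lower at ZT16. The 2 fits share all other libraries, so the second is no independent check of the first. With all libraries each of the 29 had an edgeR adjusted p of 0.496 or more. The 29 genes included Cry1, Nr1d1, Hsph1, Stip1, Hspa8, Dnmt1, Safb, Scaf4, Rfx1, Fhod1, Zswim4, Wsb1, Gabpb1, Bpnt1, Tm7sf3 and Mvk, and also Pxdn and Bgn, which encode extracellular matrix proteins. The contribution of depth and of the ZT4 replicate 1 libraries to these differences was not tested.

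Differences of activation genes were small without ZT4 replicate 1. Of 26 genes of NF-kB and TNF signalling, 8 had an unadjusted p under 0.05 with lower levels at ZT16 (4.52% of all genes did). Without overlap 5 were lower, where 6.23% of all genes were, and the median of the list was -0.40. Without both ZT4 replicate 1 libraries the median was 0.07 and no gene of the list had such a p. In that fit 1.62% of all genes had one with higher and 4.49% with lower levels. Nfkbie, an inhibitor of NF-kB, had 150 CPM in ILC2 at ZT16, against 347 and 189 CPM at ZT4, and 228 and 196 CPM in ILC3 at ZT16, against 612 and 244 CPM at ZT4 (-0.92 and, without those libraries, -0.23). Tnfsf11, the RANKL gene through which ILC3 signal to stroma and epithelium, had 128 CPM in ILC2 at ZT16, against 384 and 159 CPM at ZT4. In ILC3 it had 441 and 239 CPM at ZT16, against 1515 and 499 CPM at ZT4, which gave -1.37 with and -0.44 without the replicate 1 libraries. Of 12 class II presentation genes, 7 had an unadjusted p under 0.05 with lower levels (4.52% of all genes did). None of the 12 was without overlap. Their median was -0.75 with all libraries and -0.01 without both ZT4 replicate 1 libraries. H2-Aa had 808 CPM in ILC2 at ZT16, against 2640 and 1088 CPM at ZT4, and 3634 and 4716 CPM in ILC3 at ZT16, against 10441 and 3753 CPM at ZT4.

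Immediate-early genes went both ways, with 5 of 28 at an unadjusted p under 0.05 with higher and 2 with lower levels at ZT16, where 3.91% and 4.52% of all genes had one. With both ZT4 replicate 1 libraries left out the counts were 0 and 0, where 1.62% and 4.49% of all genes had such a p. The AP-1 gene Fos had 3187 CPM in ILC2 at ZT16, against 1402 and 2129 CPM at ZT4, and 2642 and 2285 CPM in ILC3 at ZT16, against 1135 and 1831 CPM at ZT4 (0.78, and 0.51 without both ZT4 replicate 1 libraries). The nuclear receptor gene Nr4a3 lay lower without overlap, at -1.10 with and -0.50 without them. Among 20 genes of the glucocorticoid response, 1 had such a p with higher and 3 with lower levels (median -0.21). Without those libraries there were 0 and 1 (median 0.03), beside the same 1.62% and 4.49% of all genes. The cytokine list had 1 higher and 5 lower of 27 genes at this p and a median of -0.31. Without those libraries it had 2 higher and 0 lower, beside the same 1.62% and 4.49% of all genes, and a median of 0.12. Il17f, an ILC3 cytokine gene, had 9.78 and 6.39 CPM in ILC3 at ZT16, against 103 and 19.3 CPM at ZT4, and its log2 fold change was -2.08 with and -0.63 without the replicate 1 libraries. Lif, the leukemia inhibitory factor gene, was higher without overlap, with 274 CPM in ILC2 at ZT16, against 109 and 141 CPM at ZT4, and 119 and 92.3 CPM in ILC3 at ZT16, against 71.8 and 38.8 CPM at ZT4 (1.07, and 1.31 without them).

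Of the metabolic lists, cholesterol synthesis and uptake had 7 of 28 genes lower without overlap and none higher, where 6.23% of all genes were lower and 10.3% higher. The 7 were Mvk, Cyp51, Nsdhl, Msmo1, Hsd17b7, Insig1 and Srebf2, and 3 of them (Mvk, Cyp51 and Nsdhl) had an unadjusted p under 0.05. The median of the whole list was -0.05 with and -0.17 without both ZT4 replicate 1 libraries. Oxidative phosphorylation genes were lower without overlap for 8 of 42 and higher for 2, with a median of -0.12 and no gene at an unadjusted p under 0.05. Ribosomal protein genes were lower without overlap for 8 of 48 and higher for none, with a median of -0.28 that became -0.06 without those libraries. In glycolysis (median -0.16) and the unfolded protein response (0.04) fewer genes stood out, with 3 lower and 2 higher of 22 and 3 lower and 1 higher of 27 without overlap. Of 30 genes of lipid uptake and use, 2 had higher and 3 lower levels at an unadjusted p under 0.05 (3.91% and 4.52% of all genes did), 2 were higher and 5 lower without overlap, and the median was -0.17. The 3 were the fatty acid-binding protein gene Fabp4 (-4.11), the triglyceride synthesis gene Dgat2 (-0.81) and the lipid droplet gene Plin2 (-0.64), which were at -3.29, -0.45 and -0.23 without both ZT4 replicate 1 libraries. The cholesterol efflux gene Abcg1 had 41.1 CPM in ILC2 at ZT16, against 37.4 and 28.5 CPM at ZT4, and 79.8 and 59.6 CPM in ILC3 at ZT16, against 33.7 and 34.5 CPM at ZT4 (0.82, and 0.92 without those libraries).

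Among genes of ILC identity, 5 of 24 lineage transcription factors were higher without overlap and none lower, where 10.3% and 6.23% of all genes were. None had an unadjusted p under 0.05, and the median of the list was 0.08. Among these were Maf (77.6 CPM in ILC2 at ZT16, against 51.0 and 50.2 CPM at ZT4, and 116 and 81.6 CPM in ILC3 at ZT16, against 66.0 and 66.6 CPM at ZT4), Zfp36l1, Ikzf2 and Ikzf1. The ILC2 signature had a median of 0.16 over both cell types, with -0.21 within ILC2 and 0.26 within ILC3. The ILC3 signature had one of 0.02, with -0.07 within ILC3 and -0.002 within ILC2. Among receptor genes Ptger2, which encodes a prostaglandin E2 receptor, had 10.3 CPM in ILC2 at ZT16, against 4.08 and 5.85 CPM at ZT4. In ILC3 Ptger2 had 54.0 and 34.3 CPM at ZT16, against 27.3 and 20.6 CPM at ZT4 (0.95 ± 0.29, and 1.00 without both ZT4 replicate 1 libraries). Of 28 homing genes Klf2, a factor gene for egress receptors, was higher without overlap (0.73, and 0.39 without both ZT4 replicate 1 libraries). Proliferation (median 0.09) and interferon response genes (0.22) had 1 of 34 and 1 of 33 with an unadjusted p under 0.05 and higher levels, and 0 and 2 with lower levels, where 3.91% and 4.52% of all genes had one.

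**Figure D4:**
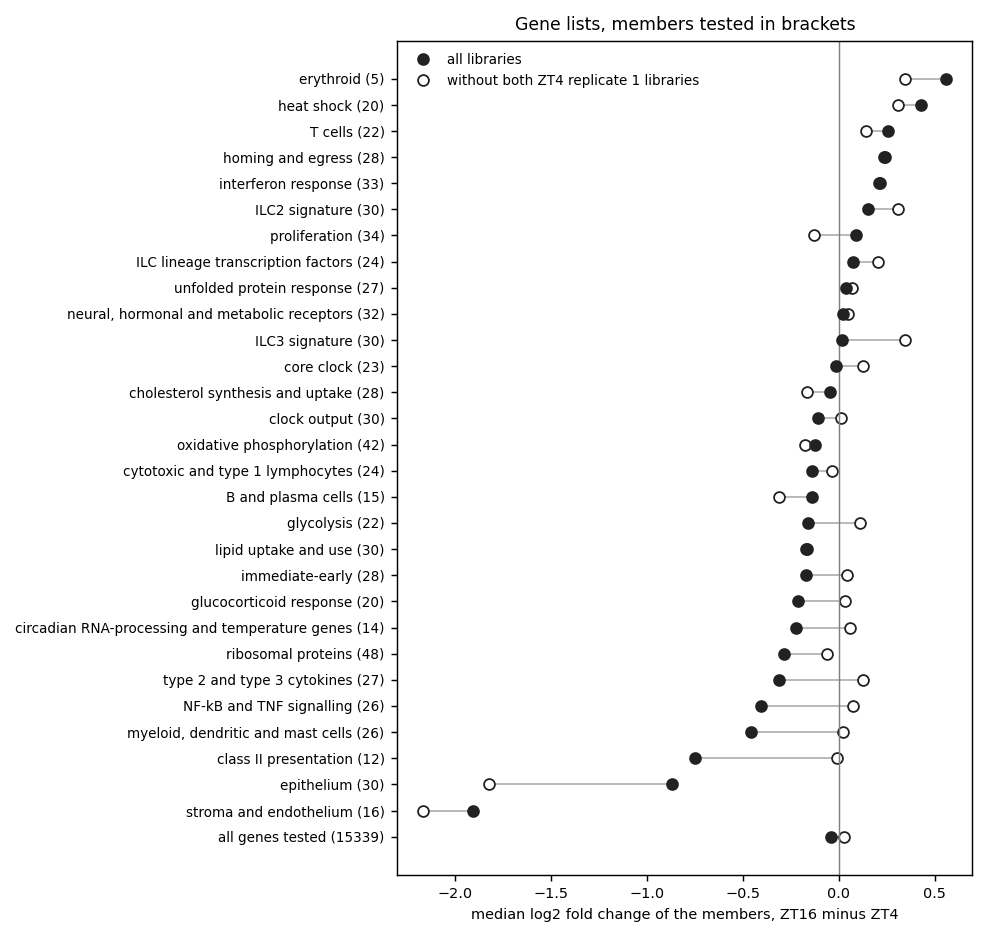
Median log2 fold change, ZT16 minus ZT4 (x axis), of the tested members of 29 gene lists and of all 15339 genes tested, with the number tested in brackets. Filled points use all libraries and open points leave out both ZT4 replicate 1 libraries; heat shock stays to the right of 0 (0.43 and 0.31), class II presentation is at -0.75 with and -0.01 without those libraries, and epithelium and stroma lie furthest to the left.

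RNA of other cell types differed between libraries as well. The summed CPM of 30 epithelial genes was 1034 in ILC2 at ZT16, against 271.5 and 2782 at ZT4, and 1295 and 1077 in ILC3 at ZT16, against 450.5 and 5854 at ZT4. The ZT16 libraries thus lay between the 2 ZT4 libraries, of which replicate 1 was low and replicate 2 high. In ILC2 ZT4 replicate 1, 13 of the 30 genes were at 0, Muc2 and Krt18 among them. No epithelial gene was without overlap, where 10.3% of all genes were higher and 6.23% lower. The median of this list was -0.87 with all libraries and -1.82 without both ZT4 replicate 1 libraries, so that leaving these out sets ZT16 against the libraries richest in epithelial RNA. Stroma and endothelium genes, 16 in all, summed to 212 CPM in ILC2 at ZT16, against 165 and 254 CPM at ZT4. In ILC3 they summed to 171 and 138 CPM at ZT16, against 217 and 490 CPM at ZT4. Of these genes 4 were lower without overlap, where 6.23% of all genes were. Of the 10 genes that DESeq2 called without both ZT4 replicate 1 libraries, 7 were lower at ZT16, among them the gut gene Reg3a and the matrix gene Bgn. In bulk samples fewer cells of a type and less RNA per cell cannot be told apart. B and plasma cell genes summed to 99590 CPM in ILC2 at ZT16, against 71110 and 99670 CPM at ZT4, mostly from Jchain, and to 1687 and 1507 CPM in ILC3 at ZT16, against 1224 and 2698 CPM at ZT4. The T cell sums were 2598 CPM in ILC2 at ZT16, against 3397 and 2369 CPM at ZT4, and 3259 and 3726 CPM in ILC3 at ZT16, against 1172 and 3730 CPM at ZT4. The part of these cells in the differences described above was not tested.

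Whether ZT16 minus ZT4 differed between the cell types was tested as an interaction in a fit of 8 group means. No gene passed at an adjusted p under 0.05 by edgeR in ILC3 alone, in ILC2 alone or for the interaction. Unadjusted p under 0.05 was reached by 511 genes in ILC3 (3.33%), 724 in ILC2 (4.72%) and 339 for the interaction (2.21%). ILC2 at ZT16 is a single library, and genes named by the interaction turned on it. Gata2, a factor gene of mast cells and progenitors, had 176 counts (13.5 CPM) in the ILC2 ZT16 library, against 0 and 0 counts in the ILC2 ZT4 libraries. In ILC3 Gata2 had 76.7 and 46.0 CPM at ZT16, against 44.5 and 40.5 CPM at ZT4 (interaction, edgeR unadjusted p = 0.00138). Some mast cell genes ran with it in that library, while others, among them Ms4a2, Cma1 and Hdc, did not. Cpa3 had 19.2 CPM in ILC2 at ZT16, against 1.53 and 3.57 CPM at ZT4, and the protease gene Mcpt1 had 282 CPM in ILC2 at ZT16, against 1.87 and 81.6 CPM at ZT4. The mast cell receptor gene Ms4a2 had 0.307 CPM in ILC2 at ZT16, against 0 and 0.406 CPM at ZT4, and Cma1 was at 0 in all 3. Hdc had 5.53 CPM in ILC2 at ZT16, against 11.2 and 3.33 CPM at ZT4. Mcpt1 has near-identical relatives with which its reads may be shared.

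Other genes of this kind were low. Iltifb, a near copy of the Il22 gene, had 87 counts in the ILC2 ZT16 library, against 11 and 6 counts at ZT4, while in ILC3 it had 86.4 and 58.8 CPM at ZT16, against 355 and 80.8 CPM at ZT4. Tiam2 had 93 counts in ILC2 at ZT16, against 9 and 21 at ZT4, and Arhgef28 and Tdrd9 had 18 and 17 counts in ILC2 at ZT16 and 0 in both ILC2 libraries of ZT4. On the other side, Selenon, a selenoprotein gene, had 12.1 CPM in ILC2 at ZT16, against 32.0 and 32.2 CPM at ZT4, and 28.9 and 28.7 CPM in ILC3 at ZT16, against 30.1 and 29.7 CPM at ZT4 (unadjusted p = 0.00424, edgeR). Tlr3, Nrp2, Cd209b and Fermt2 had 0 counts in the ILC2 ZT16 library, and between 2 and 45 counts in the ILC2 ZT4 libraries.

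The 2 remaining times show where these levels stood over the day. Taken in order from ZT4 over ZT10 and ZT16 to ZT23, Cry1 averaged 24.7, 38.6, 41.3 and 33.2 CPM in ILC2, and in ILC3 it averaged 32.6, 48.3, 55.1 and 43.3 CPM. Nr1d1 averaged 31.2, 32.1, 11.1 and 24.6 CPM in ILC2 and 192, 239, 94.6 and 88.8 CPM in ILC3, so that the ZT23 mean lay beside that of ZT16 in ILC3 and nearer to that of ZT4 in ILC2, a difference that was not tested. Hsph1 averaged 76.9, 113, 241 and 167 CPM in ILC2 and 114, 131, 228 and 170 CPM in ILC3. Zswim4 averaged 77.4, 66.0, 42.0 and 42.5 CPM in ILC2 and 128, 103, 54.7 and 49.7 CPM in ILC3, and its ZT10 means lay nearer to ZT4 and its ZT23 means nearer to ZT16 in both cell types. Of the 15 genes chosen for higher levels at ZT16, 12 had their highest mean of the 4 times at ZT16 in ILC2, the other 3 at ZT10, and all 15 had it at ZT16 in ILC3. The 15 chosen for lower levels had their highest mean at ZT4 in both cell types, and their lowest at ZT16 in all 15 in ILC2 and in 14 in ILC3. These counts describe genes chosen on 2 of the 4 times. In all 15 genes with lower levels ZT4 replicate 1 lay above replicate 2 in both cell types, which raises their ZT4 means.

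**Figure D5:**
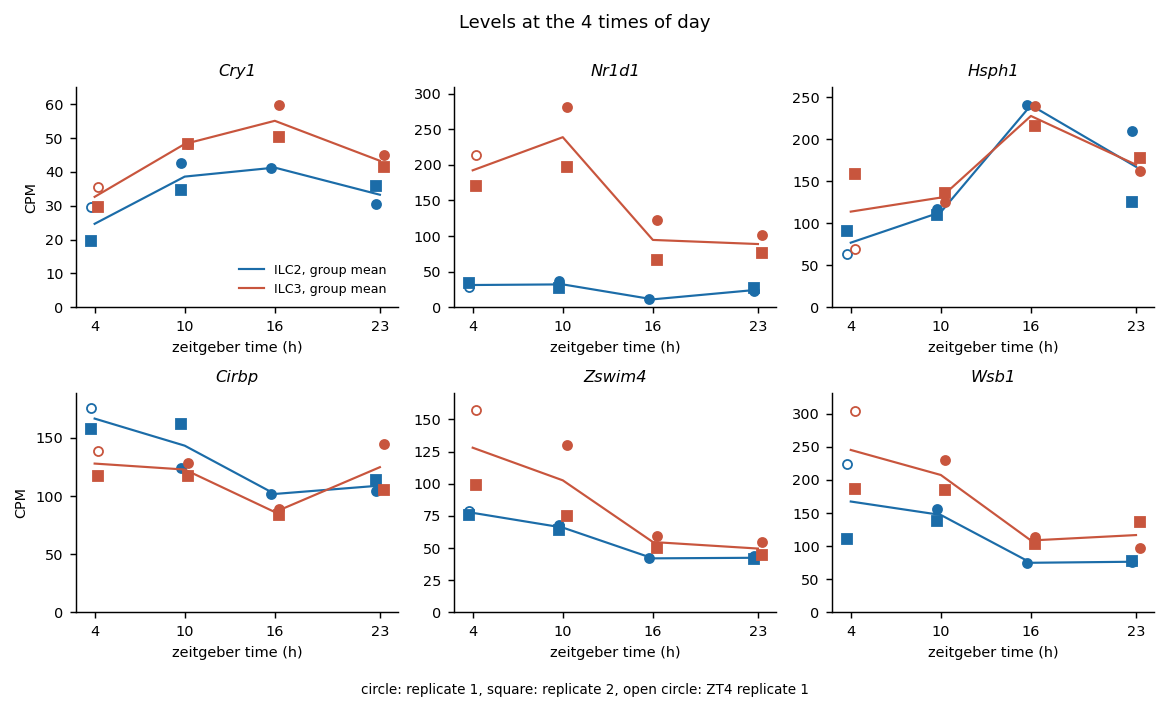
Level in CPM (y axis, from 0) of 6 genes against zeitgeber time in hours (x axis, 4, 10, 16 and 23) in ILC2 (blue) and ILC3 (red). Points are libraries, open circles are ZT4 replicate 1 and lines join group means; the group means of Cry1 and Hsph1 are highest at ZT16 in both cell types, and those of Zswim4 and Wsb1 are lower at ZT16 and ZT23 than at ZT4 and ZT10.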

How the data were processed

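PolyA RNA of sorted ILC2 and ILC3 was sequenced from libraries prepared with Illumina's TruSeq kit, per the labels' protocols. The authors deposited 1 file per library of raw read counts per gene under Entrez identifiers, counted with featureCounts on mm10, per the submitters' processing notes. The aligner, strand setting and treatment of multi-mapping reads are not given in the sources used here, so reads of overlapping or antisense genes and near-identical copies cannot be told apart. The sort gates are not given either.

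The files held 22797 genes, and 22718 were named through RefSeq GRCm38.p6, whose positions are 1-based. Genes were kept by filterByExpr (minimum count 10), which left 15339. Counts of all 15 libraries were TMM-scaled. A quasi-likelihood model of cell type plus time was fitted with edgeR 4.0.16 in R 4.3.3 (10 residual degrees of freedom, common biological coefficient of variation 0.414), in which ZT16 minus ZT4 was tested. Effects within cell types and their interaction came from 8 group means (7 residual degrees of freedom). P-values were adjusted by Benjamini-Hochberg over all genes tested, with a threshold of 0.05. Unadjusted p given with a fold change are from these fits. Replicates of a group differed by more than sampling noise. The pipeline was tested on simulated data. Their counts were drawn independently for each library, so the test did not cover the pattern that the ZT4 replicates of both cell types share.

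The comparison, its markers and the 29 gene lists (681 symbols, 675 found) were chosen with earlier results of these data known. Named were Nr1d1, Cry1, all core clock genes and up to 15 genes per direction with the smallest p. The latter were taken from those without overlap at 10 CPM or more and a log2 fold change of 0.5 or more either way. Up to 3 genes of every other list by smallest p and up to 5 interaction genes per direction were also named. Predicted, microRNA and small nucleolar genes were skipped. The skip of mitochondrial genes went by the prefix mt-, which no gene of the files has, so that ND6 was not skipped. Other list members and mast cell genes were picked as examples with their values in view. Some genes that the rules choose are not reported here by name, while counts of lists include them. Alternatives were RLE factors, library size only, no filter, DESeq2 1.42.0, the 7 libraries alone, 8 group means, a replicate block and each library left out. Leaving out both ZT4 replicate 1 libraries, with edgeR or DESeq2, was added after seeing the data. So was limma 3.58.1 voom with a correlation between libraries of the same time and replicate number.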

Additional observations from a re-analysis of the deposited data

How the results depend on the processing

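The count of 0 called genes stood at 0 in each edgeR alternative and in limma voom, except without ILC3 ZT4 replicate 2, when 1 gene was called, so that leaving out single libraries gave 0 to 1. DESeq2 called 79 of 5525 genes with an adjusted p, and 10 of 15339 with both ZT4 replicate 1 libraries left out. The cause was not tested. With the ILC3 comparison, the ILC2 comparison and the interaction the count was 0 in every edgeR alternative run; the ILC2 comparison and the interaction have no value without the ILC2 ZT16 library. The 600 genes with higher levels at an unadjusted p under 0.05 became 249 without both ZT4 replicate 1 libraries and 286 by DESeq2 without them, and 365 to 986 when single libraries were left out, the lowest without the ILC2 ZT16 library and the highest without ILC3 ZT4 replicate 2. The 693 with lower levels became 372 without ILC3 ZT16 replicate 2, the lowest, and 422 without the ILC2 ZT16 library. Over all single libraries the range was 372 to 948. The 1579 and 956 genes without overlap became 3177 and 3201 without both ZT4 replicate 1 libraries, a looser criterion because each cell type then has 1 library at ZT4.

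With a replicate block on the 14 numbered libraries, which leave out ILC2 at ZT16 because its label has no number, 302 genes with higher and 356 with lower levels had an unadjusted p under 0.05, and no gene was called. Replicate 1 minus replicate 2 correlated across genes at 0.637 between ILC2 and ILC3 at ZT4, 0.359 at ZT10 and -0.169 at ZT23, and at -0.129 between ILC3 at ZT16 and ZT4, so that the numbers did not pair samples throughout.

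Of 3229 alternative values of 132 named genes, 3157 had the direction and side of the threshold first reported, 28 were past the threshold only in the alternative and 44 had the other sign. With the 7 libraries alone these were Clock (-0.00052), Dbp (0.026), Ciart (0.046) and Fbxl21 (-0.067). With library size only they were Dbp (0.039) and Ciart (0.062), with RLE factors Fbxl21 (-0.034), with DESeq2 Fbxl21 (-0.041), with voom Fbxl21 (-0.025), with 8 group means Ciart (0.052) and Fbxl21 (-0.11), and with the replicate block Dbp (0.013) and Hbb-b1 (-0.0017). Without both ZT4 replicate 1 libraries they were Nfil3 (0.077, and 0.032 by DESeq2), Bhlhe40 (0.25 and 0.21), Klrc1 (0.19 and 0.14) and, by DESeq2, Hba-a1 (-0.0011). Leaving out single libraries gave ranges of -0.24 to 0.032 for Arntl, -0.036 to 0.15 for Clock, -0.29 to 0.033 for Cry2, -0.37 to 0.19 for Dbp, -0.081 to 0.59 for Hlf, -0.33 to 0.069 for Bhlhe40, -0.21 to 0.19 for Ciart, -0.26 to 0.24 for Fbxl21, -0.66 to 0.11 for Irf4, -0.38 to 0.94 for Hbb-b1 and -0.064 to 1.02 for Hba-a1.

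Of the 7 libraries the ZT4 replicate 1 libraries have the fewest counts, and ILC2 at ZT16 has no replicate. Scaling by library size only moved the median of all genes by 0.048 and RLE factors by -0.078 on the log2 scale.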
